A study of Homo sapiens with 18 samples.

Results

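Messenger RNA was compared directly between 2 compounds after 24 h in culture, AML874 against SEL120-34A, in OCI-AML1. This line was established from human acute myeloid leukaemia and is labelled as wild type. The libraries were chosen by the compound and the time in their titles, which gave 6 of the 18 libraries of the series, 3 with AML874 and 3 with SEL120-34A. The other groups, of 3 libraries each, were AML874 and SEL120-34A at 8 h and the solvent DMSO at both times. The 8 h libraries of the compounds were used to ask whether a difference at 24 h was already there, and the DMSO libraries at 24 h are given as levels only. AML874 is a code name, and its chemical structure is not described here. The labels give no dose for either compound, so whether the doses were matched is not known. All groups share 1 unmodified cell line, and the labels do not say whether replicates were separate cultures, so each p-value reflects how much these libraries varied and nothing more.

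SEL120-34A inhibits CDK8 and CDK19, the paralogous kinases that bind the Mediator complex together with cyclin C, MED12 and MED13. Mediator carries signals from enhancer-bound transcription factors to RNA polymerase II, and its kinase module both restrains and activates groups of genes. In myeloid leukaemia cells Mediator kinase inhibition is known for acting on enhancer-driven lineage genes, on STAT5 signalling and on interferon-regulated genes. A comparison of 2 compounds within 1 cell line asks which genes respond to one compound beyond, or short of, their response to the other.

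The 6 libraries held 99790399 to 142496541 counts in genes, and 26942 to 28631 genes had at least 1 count. A count of 0 allowed up to 3 counts, or 0.0211 to 0.0301 CPM (counts scaled to a common library size), which covers counting error only. The identity of the cells was checked with marker lists. Myeloid markers summed to 617 to 631 CPM in the AML874 libraries and 689 to 707 CPM in the SEL120-34A libraries, with SPI1, CEBPA, FLT3, CD33 and LYZ each above 50 CPM in every library. CSF2RA was listed at 0 and ANPEP and CD14 stayed under 0.5 CPM. Of 9 erythroid markers 6 were at 0, with EPOR the highest at 6.46 to 7.83 CPM, and B cell markers summed to 0.674 to 0.710 CPM with AML874 and 0.547 to 0.800 CPM with SEL120-34A. T and NK cell markers summed to 88.0 to 90.9 CPM with AML874 and 83.5 to 94.5 CPM with SEL120-34A, nearly all from NCAM1 (82.0 to 93.3 CPM), with NKG7 at 1.16 to 1.61 CPM and CD3D, CD3E, CD3G, CD2 and CD8A under 0.5 CPM. Of 10 stromal and epithelial markers 9 stayed under 0.5 CPM and PECAM1 was at 48.5 to 57.6 CPM. The glycolysis and HIF target genes, which vary between libraries of a group in this series, averaged 6.23 to 6.51 log2 CPM with AML874, 6.29 to 6.64 with SEL120-34A and 6.61 to 6.84 with DMSO at 24 h.

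The compounds left the cells with different transcriptomes at 24 h, but nearly all differences were small. Of 20920 genes tested, 1674 were higher and 2435 lower with AML874 than with SEL120-34A (edgeR quasi-likelihood test, Benjamini-Hochberg adjusted p under 0.05), which is 19.6% of the genes in either direction, 8.00% higher and 11.6% lower. The median log2 difference was 0.23 among the higher and -0.156 among the lower genes, against -0.0041 over all genes. Only 132 genes, or 0.631%, passed the test with at least a 2-fold difference, 66 in each direction, and 63 of the higher and 54 of the lower ones were under 1 CPM in the higher group. No gene above 50 CPM and 5 genes between 5 and 50 CPM passed with a 2-fold difference, and all 5 were lower with AML874. The share higher among the called genes was 40.7% in all and depended on level: 305 of 2609 genes between 1 and 5 CPM were higher and 193 lower, while 454 of 4785 genes over 50 CPM were higher and 1184 lower. The data also bounded what did not differ. For 9689 of the 10650 genes with at least 5 CPM in the higher group (91.0%), the 95% interval of the difference lay within 0.32 log2 units of 0, and 7121 of these genes were not called.

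**Figure D1:**
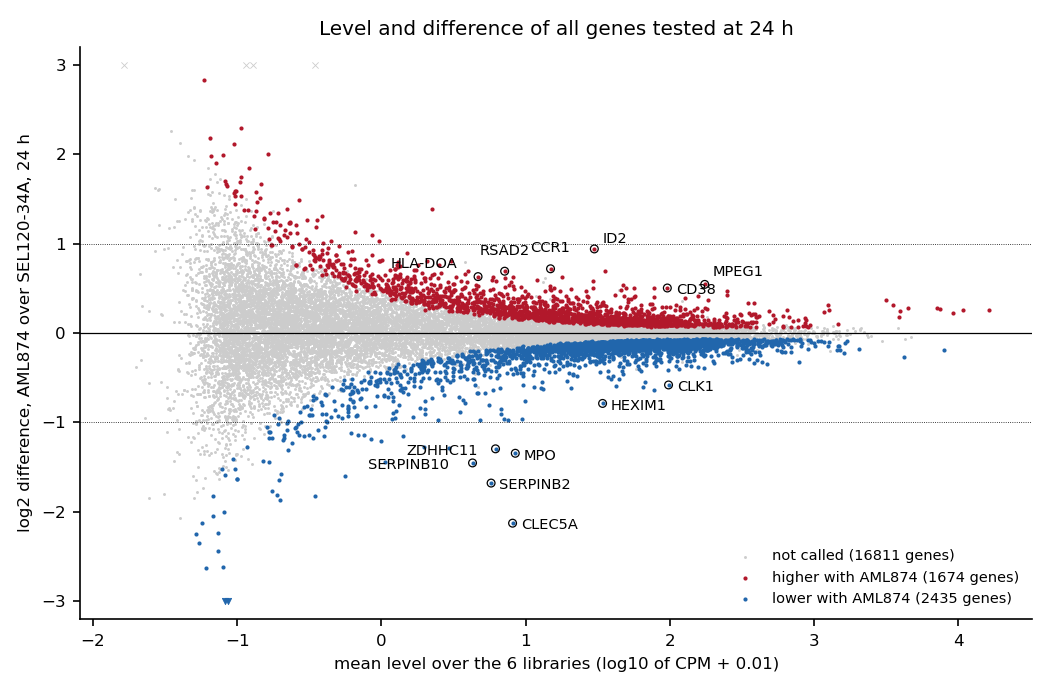
Log2 difference between AML874 and SEL120-34A at 24 h (y axis) against the mean level over the 6 libraries (x axis, log10 of CPM plus 0.01) for the 20920 genes tested, with 1674 called higher in red, 2435 called lower in blue and genes beyond 3 drawn at the edge. Dotted lines mark a 2-fold difference; the named falls CLEC5A, SERPINB2, SERPINB10, MPO and ZDHHC11 lie below the lower line, and ID2 lies just under the upper one.

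The 15 largest falls among called protein coding genes of at least 5 CPM had log2 differences between -2.13 and -0.67. CLEC5A, a lectin receptor of monocytes and neutrophils that signals through DAP12 (ENSG00000258227.7, GRCh38 chromosome 7, 141927357 to 141947007), had 3.22, 2.88 and 2.92 CPM in the AML874 libraries, 13.5, 14.6 and 11.5 CPM in the SEL120-34A libraries and 12.1, 11.4 and 12.8 CPM in the DMSO libraries. All 3 AML874 values were far below all others, while those of SEL120-34A overlapped DMSO. The log2 difference between the compounds was -2.13 ± 0.13 (SE; adjusted p = 4.18e-08). CLEC5A lies on the opposite strand within MGAM, a maltase-glucoamylase gene, which was also lower, with means of 4.66 CPM with AML874 and 8.74 CPM with SEL120-34A (-0.91 ± 0.08). The counts are by strand, but reads of 2 overlapping genes are only as well separated as the strand protocol allows.

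SERPINB2, which encodes plasminogen activator inhibitor 2, had 2.85, 2.59 and 2.74 CPM with AML874, 9.35, 9.51 and 7.42 CPM with SEL120-34A and 2.69, 2.01 and 2.57 CPM with DMSO. Here the SEL120-34A libraries stood apart and the AML874 libraries lay within or just above the range of DMSO. The difference was -1.68 ± 0.14 (adjusted p = 3.74e-08). SERPINB10 is a neighbouring serpin gene on chromosome 18 whose annotated span overlaps that of SERPINB2 on the same strand. It had 2.61, 1.98 and 2.24 CPM with AML874, 6.30, 6.52 and 5.95 CPM with SEL120-34A and 2.34, 1.98 and 2.03 CPM with DMSO. Its pattern over the groups was that of SERPINB2, at -1.45 ± 0.10, and because of the overlap the pair is not counted as independent genes.

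MPO, the myeloperoxidase gene of primary granules (ENSG00000005381.8, chromosome 17, 58269856 to 58280935), had 4.25, 5.07 and 5.07 CPM with AML874, 12.6, 11.0 and 12.8 CPM with SEL120-34A and 33.6, 37.6 and 33.7 CPM with DMSO. The 3 groups did not overlap, and AML874 was the lowest, at -1.34 ± 0.07 against SEL120-34A (adjusted p = 1.77e-15). The gene with the lowest adjusted p was HEXIM1, which holds the elongation kinase P-TEFb in its inactive complex. It had 25.7, 24.5 and 24.9 CPM with AML874, 41.9, 45.8 and 42.0 CPM with SEL120-34A and 59.6, 59.7 and 56.8 CPM with DMSO. The order of the groups was the same as for MPO, with a difference of -0.79 ± 0.04 (adjusted p = 8.46e-17).

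Of the other named falls, ZDHHC11, a palmitoyltransferase family gene, averaged 3.57 CPM with AML874 and 8.76 CPM with SEL120-34A, a difference of -1.30 ± 0.07. ZDHHC11 has a close copy, ZDHHC11B, and it overlaps BRD9 on the same strand, so its reads may be shared. RHEX, a regulator of erythropoietin signalling, averaged 6.32 CPM with AML874, 12.4 CPM with SEL120-34A and 4.46 CPM with DMSO. COL7A1, the collagen VII gene, averaged 3.26, 6.43 and 3.32 CPM in the same order of groups, and SEL120-34A was the highest group for both. The RHEX libraries of AML874 (5.71 to 7.34 CPM) also lay above those of DMSO (3.99 to 4.95 CPM), while COL7A1 overlapped between AML874 and DMSO. MAMDC4, C13orf46, PRR22, C12orf57, ZBTB12 and ARID5B made up the 15 largest falls, with log2 differences between -0.98 and -0.67, and MAMDC4 shares sequence on its strand with PHPT1, a more strongly expressed gene.

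The largest rises among the named genes were smaller than the largest falls. ID2, an inhibitor of helix-loop-helix transcription factors that takes part in myeloid and lymphoid fate decisions (ENSG00000115738.10, chromosome 2, 8678845 to 8684453), had 41.6, 40.5 and 35.9 CPM with AML874, 21.5, 19.4 and 20.5 CPM with SEL120-34A and 45.2, 45.4 and 41.2 CPM with DMSO. AML874 overlapped DMSO, and the SEL120-34A libraries were the low ones. ID2 was higher with AML874 by 0.94 ± 0.05 (adjusted p = 1.28e-13). MPEG1, a pore-forming protein of macrophages, had 213, 207 and 200 CPM with AML874, 140, 147 and 138 CPM with SEL120-34A and 39.4, 37.2 and 37.8 CPM with DMSO. Its 3 groups did not overlap, and the AML874 libraries were the highest (0.54 ± 0.03). CCR1, a receptor of inflammatory chemokines, averaged 18.4 ± 2.4 CPM with AML874 and 11.3 ± 2.5 CPM with SEL120-34A (SD, n = 3 each) and differed by 0.72 ± 0.14. It did not pass in a model of the 2 groups alone (adjusted p = 0.0824).

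Other named rises were PIGZ, a mannosyltransferase of GPI anchors, APOLD1, an apolipoprotein L family gene, ATP6AP1L, CACNB4, a calcium channel subunit, FLOT1, a membrane raft protein, LIMA1, an actin-bundling protein, NOXA1, a regulator of NADPH oxidases, and DENND6B, with log2 differences between 0.53 and 0.63. RSAD2, HLA-DOA and HLA-DMB are described with their groups. CD38, a surface ectoenzyme that consumes NAD, had 112, 115 and 111 CPM with AML874, 78.8, 79.6 and 79.6 CPM with SEL120-34A and 50.8, 52.5 and 51.7 CPM with DMSO. Each AML874 library was above each SEL120-34A library, and CD38 was higher by 0.50 ± 0.03. SAMHD1, which cleaves deoxynucleotide triphosphates and inactivates cytarabine triphosphate, averaged 87.7 CPM with AML874, 66.2 CPM with SEL120-34A and 74.5 CPM with DMSO. It was higher by 0.41 ± 0.03 (adjusted p = 6.2e-13), with the compounds on opposite sides of DMSO.

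**Figure D2:**
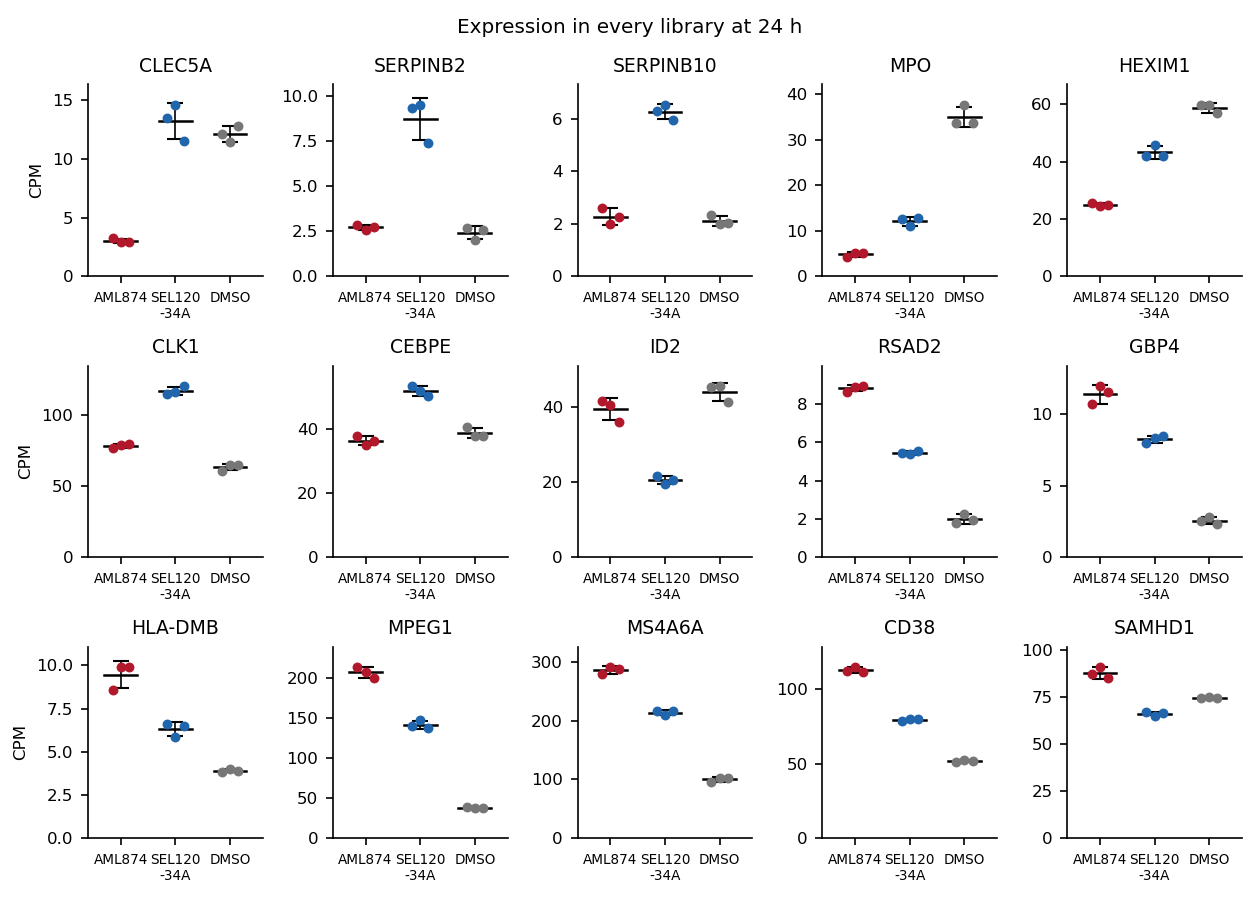
CPM in each library at 24 h (points) for 15 named genes, with the mean (line) and SD (bars) of the 3 libraries of AML874 (red), SEL120-34A (blue) and DMSO (grey); each y axis starts at 0. The genes were named for the size or p of their difference at 24 h. Those among the largest rises and falls also had to have libraries that did not overlap. The separation of AML874 from SEL120-34A libraries in all 15 is therefore not a separate result. Over all genes tested AML874 lay wholly above in 15.2% and wholly below in 17.4%. CLEC5A was at 2.88 to 3.22 CPM against 11.5 to 14.6 CPM.

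Of 13 MHC class II presentation genes tested 8 were higher with AML874 and 0 lower, with a median log2 difference of 0.286 against -0.0041 over all genes. The counts of this and the following lists stand beside shares of 8.00% higher and 11.6% lower over all genes. HLA-DRA, the alpha chain of HLA-DR, had 393, 397 and 390 CPM with AML874, 345, 339 and 342 CPM with SEL120-34A and 253, 237 and 237 CPM with DMSO. No library of AML874 overlapped SEL120-34A, and the difference was 0.20 ± 0.03. HLA-DMB and HLA-DMA, which load peptides onto class II molecules, were higher by 0.57 ± 0.07 and 0.36 ± 0.05, HLA-DOA, which modulates that loading, by 0.63 ± 0.10, and HLA-DPA1 and HLA-DPB1 each by 0.29 ± 0.03. HLA genes are polymorphic and resemble each other, and reads with several alignments are not in these counts, so values of single HLA genes are uncertain.

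Of 18 genes of MHC class I presentation 9 were higher and 0 lower (median 0.088). They included ERAP2, a peptidase that trims peptides in the endoplasmic reticulum, at 84.2 CPM with AML874 and 66.9 CPM with SEL120-34A (0.33 ± 0.03). TAP1, a peptide transporter subunit, was higher by 0.18 ± 0.03, PSMB9, an immunoproteasome subunit, by 0.23 ± 0.04, and TAPBPL, a peptide editor, by 0.26 ± 0.05. Every library of one compound lay apart from every library of the other for these 4 genes, which were named by their p. Over all genes tested AML874 lay wholly above in 15.2% and wholly below in 17.4%.

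Of 40 interferon-stimulated genes 13 were higher and 2 lower (median 0.211), which is more than the 8.00% of all genes that were higher. RSAD2, which encodes the antiviral protein viperin, had 8.63, 8.89 and 8.92 CPM with AML874, 5.45, 5.36 and 5.55 CPM with SEL120-34A and 1.78, 2.26 and 1.93 CPM with DMSO. The groups were ordered without overlap, with a difference of 0.69 ± 0.08 between the compounds. GBP4, an interferon-gamma-induced GTPase, had 10.7, 12.0 and 11.5 CPM with AML874, 7.98, 8.34 and 8.45 CPM with SEL120-34A and 2.54, 2.80 and 2.31 CPM with DMSO, and was higher by 0.46 ± 0.07. CMPK2, a nucleotide kinase gene that overlaps RSAD2 on the opposite strand, was higher by 0.28 ± 0.04, and IRF1, a transcription factor of the interferon response, by 0.19 ± 0.03. CMPK2 had 406% of the counts of RSAD2, so reads of CMPK2 on the wrong strand may contribute to RSAD2. The 2 lower genes, named after their values were seen, were TRIM22 and ISG15, which are also induced by interferons.

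The promoters of 3 of the higher genes are shown because their sequence holds the interferon-stimulated response motif, written as GAAA, any 2 bases and GAAA again, and searched on both strands. They are RefSeq promoters on build GRCh38.p14, 250 bases before to 50 after the annotated start and written 5′ to 3′ on the strand of the gene, with the motif in capitals. GBP4 is at chr1:89198893-89199192 on the minus strand. IFIT5 is at chr10:89414318-89414617 and IFIT3 at chr10:89327747-89328046, both on the plus strand, and both encode RNA-binding antiviral proteins. IFIT5 and IFIT3 were chosen after their values were seen.
GBP4: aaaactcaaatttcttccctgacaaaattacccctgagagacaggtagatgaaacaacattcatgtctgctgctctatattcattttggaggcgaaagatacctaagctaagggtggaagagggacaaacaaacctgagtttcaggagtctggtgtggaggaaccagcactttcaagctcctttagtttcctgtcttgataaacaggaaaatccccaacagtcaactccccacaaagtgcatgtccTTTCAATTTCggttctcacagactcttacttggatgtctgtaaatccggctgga
IFIT5: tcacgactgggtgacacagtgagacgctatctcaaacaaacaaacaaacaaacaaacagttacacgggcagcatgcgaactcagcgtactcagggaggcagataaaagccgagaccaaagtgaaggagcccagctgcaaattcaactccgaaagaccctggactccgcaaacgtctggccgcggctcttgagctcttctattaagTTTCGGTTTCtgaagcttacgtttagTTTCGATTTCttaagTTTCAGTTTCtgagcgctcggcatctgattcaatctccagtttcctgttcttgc
IFIT3: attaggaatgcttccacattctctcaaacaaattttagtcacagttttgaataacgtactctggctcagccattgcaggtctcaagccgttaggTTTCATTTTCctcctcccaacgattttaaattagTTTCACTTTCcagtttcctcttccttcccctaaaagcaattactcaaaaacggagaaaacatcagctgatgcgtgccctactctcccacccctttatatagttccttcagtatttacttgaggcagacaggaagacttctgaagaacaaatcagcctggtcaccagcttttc
The motif occurred once in GBP4, at 3 places in IFIT5 and at 2 in IFIT3. It was present in 1255 of 35116 promoters in the table (3.57%) and in 18 of the 30 list members with a sequence (60.0%). Within the list it was in 7 of 13 higher genes (53.85%) and in 10 of 16 genes not called (62.5%), and the difference was not tested. Over all genes tested, list members included, it was in 4.5% of the higher and 2.39% of the lower genes with a sequence, and in 3.05% of all of them. The 53 higher genes with the motif include the 7 of the list. A match describes these letters and does not show binding.

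Genes of the granulocyte and monocyte programmes moved both ways. Primary granule genes were lower in 4 of 11 and higher in 0. Beside MPO these were LYZ, the lysozyme gene, at 154 CPM with AML874 and 183 CPM with SEL120-34A (-0.25 ± 0.02), BPI, a bactericidal granule protein, at 6.28 and 8.59 CPM in that order (-0.45 ± 0.08), and SRGN, the granule proteoglycan serglycin, whose libraries overlapped and whose call was lost under several alternatives (-0.11 ± 0.04, adjusted p = 0.0422). Of 7 neutrophil maturation genes MMP25, a membrane-bound metalloproteinase, was lower by 0.62 ± 0.07 on the log2 scale and CXCR2, a chemokine receptor, by 0.12 ± 0.03; the median over the list was 0.337, set by members that were not called.

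Of 19 monocyte and macrophage genes 4 were higher and 6 lower. MS4A6A, a membrane protein of macrophages, had 279, 291 and 288 CPM with AML874, 216, 209 and 216 CPM with SEL120-34A and 95.6, 102 and 103 CPM with DMSO, and was higher by 0.42 ± 0.03. MS4A7 and MPEG1 were higher too (0.49 ± 0.06 and 0.54 ± 0.03), while CLEC5A fell. The lower group also held FCGR2A, CSF1R, CLEC7A, FCGR1A and MRC1, receptors of the same cells, named after their values were seen. Among myeloid pattern receptors TLR4, the receptor of lipopolysaccharide, was lower by 0.21 ± 0.03 and RAB7B, a late endosomal GTPase that limits TLR4 signalling, by 0.64 ± 0.11, in a list of 17 with 1 higher and 2 lower genes. Of 26 lysosome and autophagy genes 6 were higher, among them the cathepsin genes CTSS (0.18 ± 0.03) and CTSZ (0.12 ± 0.02), and 5 lower, among them ULK1 (-0.14 ± 0.03) and MAP1LC3B (-0.11 ± 0.03), which act in autophagosome formation. The lower count was 2 without replicate 2 of AML874 or replicate 3 of SEL120-34A, and 3 without replicate 3 of AML874. In bulk RNA a lower level in each cell and a smaller share of cells that express a gene cannot be told apart.

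Transcription factors of blood cell formation were lower in 13 of 32 and higher in 3. CEBPE, which drives late granulocyte maturation, had 37.8, 34.9 and 36.3 CPM with AML874, 53.3, 51.8 and 50.2 CPM with SEL120-34A and 40.4, 37.8 and 37.8 CPM with DMSO. AML874 lay just below DMSO, SEL120-34A lay above both, and the difference was -0.51 ± 0.04 (adjusted p = 1.42e-11). NFE2, a factor of megakaryocytes and erythroid cells, averaged 2.72 CPM with AML874 and 4.56 CPM with SEL120-34A (-0.74 ± 0.08), and CEBPD, a factor of myeloid differentiation, differed by -0.35 ± 0.04. IKZF1, the Ikaros gene, was higher by 0.19 ± 0.02.

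Among 9 progenitor surface genes CD38 and CD96 were higher, and CD34, CLEC12A and CD33 lower. CD33 was named after its values were seen, and the calls of CD96, CLEC12A and CD33 were lost under some alternatives. The count of 3 lower genes was 1 with library totals, 0 without replicate 1 of AML874 and 1 without any 1 of the SEL120-34A libraries, and that of 2 higher genes was 1 without replicate 1 of SEL120-34A. CD34, the stem and progenitor marker, had 5.53, 6.97 and 6.15 CPM with AML874, 7.29, 7.88 and 7.73 CPM with SEL120-34A and 0.622, 0.736 and 0.789 CPM with DMSO. Both compounds stood far above DMSO, and the difference between them was -0.30 ± 0.09 (adjusted p = 0.0131). CD34 did not pass without replicate 1 of AML874 (adjusted p = 0.126) or without replicate 3 of SEL120-34A (0.0534).

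Mitosis genes were lower with AML874 in 15 of 27 and higher in 0, with a median of -0.13. MKI67, the Ki-67 gene of cycling cells, had 680, 680 and 728 CPM with AML874, 858, 874 and 872 CPM with SEL120-34A and 964, 973 and 980 CPM with DMSO. The 3 groups did not overlap and AML874 was the lowest, at -0.32 ± 0.03 against SEL120-34A (adjusted p = 1.88e-10). KIF20A, a kinesin of cytokinesis, differed by -0.26 ± 0.03, TOP2A, a topoisomerase, by -0.22 ± 0.03 and MAD2L1, of the spindle checkpoint, by -0.14 ± 0.03. DNA replication and G1/S genes were lower in 11 of 35 and higher in 2, or higher in 0 without replicate 2 of AML874 or replicate 1 of SEL120-34A. The lower ones included the helicase subunit genes MCM7 (-0.20 ± 0.02) and MCM2 (-0.14 ± 0.02) and E2F2, a G1/S transcription factor (-0.20 ± 0.03).

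MYC had 571, 565 and 555 CPM with AML874, 614, 606 and 610 CPM with SEL120-34A and 690, 656 and 643 CPM with DMSO. The ranges were apart, and the difference was small, at -0.11 ± 0.03 (adjusted p = 0.00105). Of 28 MYC and nucleolar genes 4 were lower, a share near the 11.6% of all genes, and 0 higher. The lower count was 11 without replicate 2 of SEL120-34A and 2 without replicate 1 of SEL120-34A. Over all alternatives run it reached 15, so its nearness to the share of all genes depends on the processing. DKC1, of the telomerase and small nucleolar complex, was at -0.14 ± 0.03. Of 35 cytosolic ribosomal protein genes 3 were higher and 1 was lower. The higher count was 0 without replicate 1 of AML874 or replicate 1 of SEL120-34A and 1 without replicate 3 of SEL120-34A, and the lower one was 0 without replicate 3 of AML874. The lower gene, RPL22, was at -0.09, and at 0.01 with RSEM counts.

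Transcripts of the mitochondrial genome were higher with AML874 in 12 of 13, with a median of 0.261. MT-ND1, a subunit of respiratory complex I, had 3615, 3361 and 3615 CPM with AML874, 2877, 2747 and 2593 CPM with SEL120-34A and 2681, 2689 and 2549 CPM with DMSO. AML874 lay above both other groups, which overlapped each other, and the difference was 0.37 ± 0.03. MT-CO1, a subunit of cytochrome c oxidase, was higher by 0.26 ± 0.03, MT-ND5 by 0.24 ± 0.03 and MT-ND3 by 0.31 ± 0.03. Mitochondrially encoded genes took 7.74 to 8.16% of the gene counts with AML874, 6.34 to 6.82% with SEL120-34A and 6.11 to 6.18% with DMSO. Nuclear-encoded respiratory chain genes did not follow as a group: 5 of 36 were higher and 0 lower, with a median of 0.004. With 1 library left out 3 to 5 were higher, the fewest without replicate 3 of AML874, and 0 to 1 lower. NDUFB5 was higher by 0.19 ± 0.03, NDUFA10 by 0.15 ± 0.03 and UQCRC2 by 0.14 ± 0.02. TFAM, which drives transcription of the mitochondrial genome, was lower by 0.12 ± 0.03. Genes of mitochondrial ribosomes and import were higher in 1 of 26 and lower in 2, counts that ranged over 0 to 2 and 1 to 3 with 1 library left out.

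Heat shock genes were lower in 12 of 19 and higher in 0. HSP90AA1, the inducible HSP90 gene, had 1455, 1509 and 1515 CPM with AML874, 1772, 1674 and 1779 CPM with SEL120-34A and 2270, 2285 and 2288 CPM with DMSO, which were 3 ranges without overlap (-0.22 ± 0.03). HSPB1, a small heat shock protein, differed by -0.34 ± 0.05, CHORDC1, an HSP90 cochaperone, by -0.22 ± 0.03 and HSPH1, of the HSP110 family, by -0.17 ± 0.03. Of 26 ATF4 targets and amino acid genes 10 were lower and 0 higher. They were led by SLC7A11, the cystine transporter, at 4.71 CPM with AML874 and 6.59 CPM with SEL120-34A (-0.49 ± 0.07), PSAT1, of serine synthesis (-0.22 ± 0.03), CEBPG (-0.18 ± 0.03) and the glutamine transporter SLC1A5 (-0.21 ± 0.03).

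Of 17 endoplasmic reticulum chaperones 2 were higher and 6 lower, beside 8.00% higher and 11.6% lower of all genes. The lower count was 3 without replicate 1 of AML874 and 4 without replicate 1 of SEL120-34A. CRELD2 (0.19 ± 0.04) and CANX, the calnexin gene (0.11 ± 0.02), were higher, and DNAJB9 (-0.26 ± 0.06) and DNAJC3 (-0.12 ± 0.03), cochaperones of BiP, were lower. NRF2 targets were lower in 6 of 18 and higher in 1. TKT and TALDO1, of the pentose phosphate pathway, were at -0.18 ± 0.03 and -0.10 ± 0.02, and GCLC, of glutathione synthesis, at -0.17 ± 0.03. p53 targets were lower in 6 of 27 and higher in 0. RRM2B, a ribonucleotide reductase subunit, was at -0.22 ± 0.04, MDM2, the ligase that degrades p53, at -0.17 ± 0.04 and TP53I3 at -0.18 ± 0.04. Of 21 glycolysis genes 1 was higher, PFKM (0.12 ± 0.04, adjusted p = 0.04, with overlapping libraries), and of 21 other HIF targets 0 were called. Without replicate 1 of AML874 3 glycolysis genes were lower.

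Liver X receptor targets, which export cholesterol and make fatty acids, were lower in 6 of 13 and higher in 0. ABCA1, a cholesterol exporter, had 51.2, 56.5 and 56.4 CPM with AML874, 75.4, 87.2 and 76.9 CPM with SEL120-34A and 60.0, 67.6 and 63.0 CPM with DMSO. AML874 lay below DMSO and SEL120-34A above it (-0.55 ± 0.08). NR1H3, the liver X receptor alpha gene, was at 3.55 CPM with AML874 and 5.32 CPM with SEL120-34A (-0.58 ± 0.07), ABCG1 differed by -0.48 ± 0.06 and SREBF1 by -0.32 ± 0.03. Cholesterol synthesis genes were higher in 4 of 23 and lower in 0, with SC5D, of the last steps of the pathway, at 0.23 ± 0.04. That count was 9 with library totals in place of TMM scaling, 2 higher and 2 lower without replicate 1 of AML874, and 8 higher without replicate 3 of AML874.

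**Figure D3:**
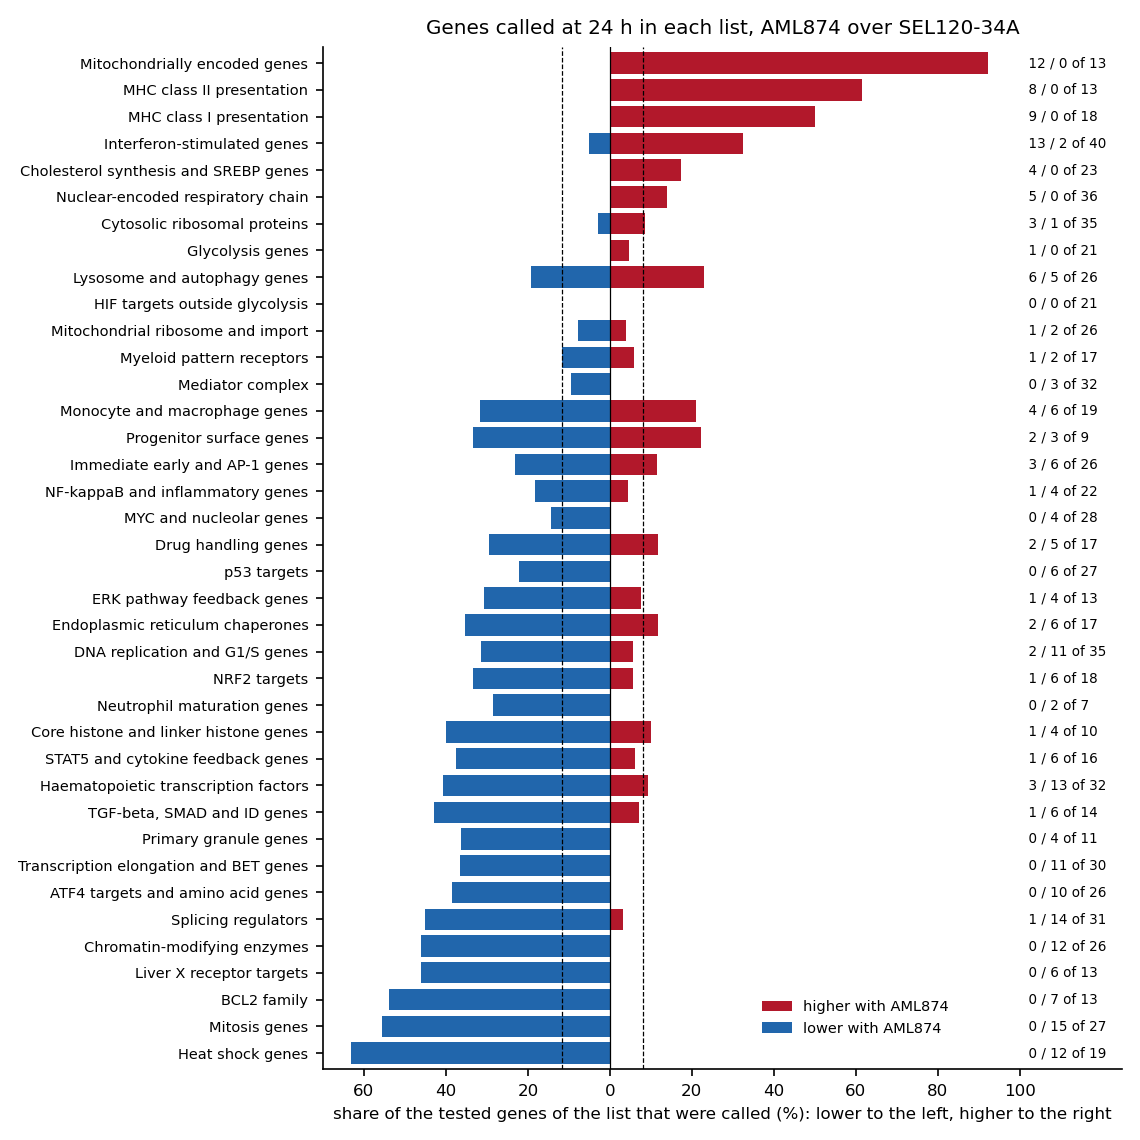
Share of the tested genes of each of 38 gene lists called at 24 h (x axis, in %), higher with AML874 to the right in red and lower to the left in blue; the counts (higher / lower of tested) stand at the right and dashed lines mark the shares of all genes, 8.00% higher and 11.6% lower. Mitochondrially encoded and MHC genes lie at the top, with 12 of 13, 8 of 13 and 9 of 18 higher, and heat shock, mitosis and BCL2 family genes at the bottom, with 12 of 19, 15 of 27 and 7 of 13 lower.

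Genes of the transcription machinery were lower with AML874 or did not pass. Of 30 elongation and BET genes 11 were lower and 0 higher. After HEXIM1 came MEPCE, which caps the 7SK RNA of the same inhibitory complex, with 68.1, 68.4 and 68.9 CPM with AML874 and 86.7, 85.5 and 87.0 CPM with SEL120-34A. The 2 ranges were far apart relative to their width (-0.34 ± 0.03). NELFCD, of the pausing factor NELF, differed by -0.26 ± 0.03 and BRD3, a bromodomain reader of acetylated histones, by -0.20 ± 0.03. Chromatin-modifying enzymes were lower in 12 of 26 and higher in 0, among them the acetyltransferase gene EP300 (-0.24 ± 0.03), TET2 (-0.26 ± 0.04), HDAC5 (-0.29 ± 0.04) and the histone H3 methyltransferase DOT1L (-0.15 ± 0.03). Of 10 replication-independent histone genes 4 were lower and 1 higher, and H1-10, a linker histone, led with 180 CPM with AML874 and 226 CPM with SEL120-34A (-0.33 ± 0.03).

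Splicing regulators were lower in 14 of 31 and higher in 1. CLK1, a kinase of SR splicing factors, had 76.6, 78.9 and 79.7 CPM with AML874, 115, 116 and 121 CPM with SEL120-34A and 61.0, 64.8 and 64.9 CPM with DMSO. Both compounds were above DMSO, SEL120-34A the more so, and the compounds differed by -0.58 ± 0.03 (adjusted p = 3.01e-16). CLK4, a related kinase, differed by -0.31 ± 0.04, HNRNPDL by -0.25 ± 0.02 and SAFB by -0.17 ± 0.02.

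Of 32 Mediator subunits 3 were lower and 0 higher, a share of lower genes near the 11.6% of all genes, among them MED16 (-0.14 ± 0.03). Only 1 was lower without replicate 1 of AML874, replicate 1 of SEL120-34A or replicate 3 of SEL120-34A. The kinase module was bounded tightly: CDK8 was at -0.04 (95% interval -0.10 to 0.03), CDK19 at 0.01 (-0.10 to 0.11), CCNC, the cyclin C gene, at -0.01 (-0.07 to 0.05), MED12 at -0.01 (-0.08 to 0.05) and MED13 at -0.05 (-0.11 to 0.01), all on the log2 scale. Each interval lay within 0.32 log2 units of 0, and none of the 5 genes was called.

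BCL2 family genes were lower in 7 of 13 and higher in 0, or higher in 2 without replicate 2 of SEL120-34A. BCL2, the anti-apoptotic gene that venetoclax targets, had 491, 489 and 465 CPM with AML874, 467, 504 and 489 CPM with SEL120-34A and 426, 407 and 400 CPM with DMSO. The compounds overlapped, and the 95% interval of their log2 difference was -0.07 to 0.04. MCL1, another anti-apoptotic member, was lower by 0.11 ± 0.02 on the log2 scale (368 CPM with AML874 and 396 CPM with SEL120-34A). The other falls included the pro-apoptotic genes BBC3 (-0.43 ± 0.09), BMF (-0.34 ± 0.08), BCL2L11 (-0.19 ± 0.03) and BAX (-0.10 ± 0.03). BCL2L1 was at -0.13 ± 0.04 (adjusted p = 0.027), and did not pass without replicate 1 of AML874 (0.17), replicate 1 of SEL120-34A (0.0577) or replicate 3 of SEL120-34A (0.212). PMAIP1, the pro-apoptotic NOXA gene, was at 0.17 ± 0.06 with overlapping libraries (adjusted p = 0.0865). BCL2A1 was under 0.3 CPM in every library and was not called.

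EGR1, an early growth response factor that was far under DMSO with both compounds, had 18.5, 15.3 and 13.2 CPM with AML874, 8.23, 12.9 and 10.6 CPM with SEL120-34A and 129, 101 and 115 CPM with DMSO. The AML874 libraries were just above those of SEL120-34A, but the difference of 0.58 ± 0.24 did not pass (adjusted p = 0.115). Of 26 immediate early and AP-1 genes 3 were higher, with KLF10 at 0.31 ± 0.07 and CCN1 at 0.48 ± 0.11, and 6 lower, with JUNB at -0.17 ± 0.04 and FOSL1 at -0.27 ± 0.06. The lower count was 3 without both replicate 1 of AML874 and replicate 2 of SEL120-34A. Feedback genes of the ERK pathway were lower in 4 of 13 and higher in 1, or higher in 0 without replicate 1 or 2 of either compound. ETV5, a transcription factor of that pathway, was at 7.68 CPM with AML874 and 11.4 CPM with SEL120-34A (-0.58 ± 0.06), and the inhibitors SPRED1 and SPRED2 at -0.32 ± 0.04 and -0.21 ± 0.03.

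STAT5 and cytokine feedback genes were lower in 6 of 16 and higher in 1. PIM3, a survival kinase, was at -0.20 ± 0.03, STAT5A at -0.15 ± 0.03 and CSF2RB, the shared beta chain of the GM-CSF and IL-3 receptors, at -0.12 ± 0.03, while OSM, the oncostatin M gene, was higher by 0.64 ± 0.12 at 1.55 CPM with AML874 and 0.994 CPM with SEL120-34A. In the TGF-beta, SMAD and ID list 6 of 14 were lower and ID2 was the only higher gene. SMAD6, an inhibitory SMAD, differed by -0.36 ± 0.04, TGFBR2, a TGF-beta receptor, by -0.20 ± 0.03 and SKI, a SMAD corepressor, by -0.17 ± 0.03. NF-kappaB and inflammatory genes were lower in 4 of 22 and higher in 1, beside 11.6% lower and 8.00% higher of all genes. In this list IL1RN, the interleukin-1 receptor antagonist, was at -0.33 ± 0.06 and the chemokine gene CXCL2 at 0.42 ± 0.09. The lower count was 2 without replicate 1 of AML874 or replicate 1 or 3 of SEL120-34A, and without replicate 2 of SEL120-34A it was 3, with 3 higher. Of 17 drug handling genes SAMHD1 and 1 other were higher and 5 lower, among them NT5C2, a nucleotidase that degrades nucleoside analogues (-0.17 ± 0.03), and the exporter ABCC4 (-0.15 ± 0.03).

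Long non-coding genes leaned the opposite way to protein coding genes. Of 3788 long non-coding genes 317 (8.37%) were higher with AML874 and 96 (2.53%) lower, while of 13339 protein coding genes 1232 (9.24%) were higher and 2282 (17.11%) lower. The median log2 difference was 0.112 for long non-coding and -0.02 for protein coding genes. The lean held within levels: between 1 and 5 CPM 140 of 782 long non-coding genes were higher and 34 lower, against 127 and 148 of 1284 protein coding genes, and between 5 and 50 CPM the counts were 93 and 32 of 361, against 607 and 883 of 5261. At 8 h long non-coding genes were higher in 399 and lower in 330, with a median of 0.014. Reads assigned to no annotated feature on the counted strand were 7.04 to 7.28% of reads with AML874 and 6.35 to 6.83% with SEL120-34A. With DMSO they were 6.29 to 7.40%, a range that spans both compounds. Long non-coding genes took 1.09 to 1.10% of the gene counts with AML874 and 1.02 to 1.06% with SEL120-34A. The part of these shares in the lean was not tested.

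Among the named non-coding genes, NAPSB, a transcribed pseudogene of the protease gene NAPSA, had 35.2, 35.8 and 34.6 CPM with AML874 and 24.0, 21.8 and 24.8 CPM with SEL120-34A (0.58 ± 0.04). The groups did not overlap, but reads of a pseudogene and its parent can be confused, and the same holds for GTF2IP20 (0.53 ± 0.07) and PTMAP5 (-0.44 ± 0.09). NR1H2, which overlaps NAPSB on the opposite strand, had 166% of the counts of NAPSB, so wrong-strand reads may contribute there too. The antisense gene RBM26-AS1 was higher by 0.62 ± 0.06 and ENSG00000264112 by 0.69 ± 0.07. RBM26, which overlaps RBM26-AS1 on the opposite strand, had 1323% of its counts, so reads of RBM26 on the wrong strand may contribute. ZNF337-AS1 was higher by 0.53 ± 0.06, and by 0.27 when reads were counted without strand. The falls were SWINGN, at 4.80 CPM with AML874 and 8.64 CPM with SEL120-34A (-0.84 ± 0.08), ENSG00000260997, ENSG00000254006 and TNRC6C-AS1, between -0.48 and -0.46. TNRC6C-AS1 overlaps TMC6 on the same strand and TNRC6C on the opposite one, with 1587% and 693% of its counts, so its reads may be shared. SWINGN and C13orf46, both lower, lie near each other on chromosome 13, at 113926514 to 113928844 and 113953705 to 113974079.

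**Figure D4:**
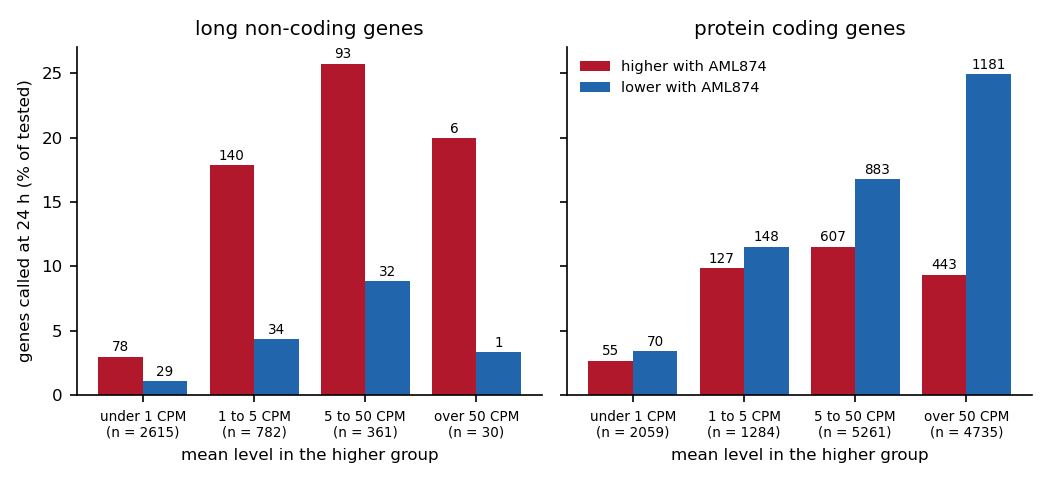
Share of tested genes called at 24 h (y axis, in %) by mean CPM in the higher group (x axis) for long non-coding genes (left panel) and protein coding genes (right panel), higher with AML874 in red and lower in blue, with the number of genes over each bar. More long non-coding genes were higher than lower at each level, such as 140 and 34 between 1 and 5 CPM, and more protein coding genes lower, such as 443 higher and 1181 lower over 50 CPM.

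At 8 h 3346 genes were higher (16.0%) and 3190 lower with AML874 than with SEL120-34A, 31.2% in all. The difference between the compounds itself changed between the times in 3704 genes (17.7%), by an interaction term in the same model; 1469 were higher and 2235 lower (10.7%) at 24 h than at 8 h. The share higher among these was 39.7%, and 51.5% with library totals in place of TMM scaling (1841 higher and 1733 lower), where the median of all genes moved to 0.027 on the log2 scale. Of 183 named genes above 1 CPM, 39 had a difference that was higher at 24 h, 52 one that was lower, and 92 were not called between the times. Most of these genes were named for the size or p of their difference at 24 h, which the interaction term shares. That choice favours larger differences at 24 h, so these counts cannot be set against the 17.7% of all genes.

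HEXIM1 kept its difference, at -0.79 at 24 h and -0.78 at 8 h. ZDHHC11 (-1.30 at 24 h, -1.53 at 8 h), HLA-DOA (0.63, 0.77), MS4A6A (0.42, 0.39) and H1-10 (-0.33, -0.35) were likewise called at both times with no call between them. In contrast MPO was at -1.34 at 24 h and -0.13 at 8 h, and SERPINB10 at -1.45 and 0.10 in that order. Their interaction terms were -1.22 and -1.55. CLEC5A already differed at 8 h, by -0.63, and the interaction term was -1.49.

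ID2 was at 0.94 at 24 h and at -0.12 at 8 h, where it was not called (adjusted p = 0.0742), with an interaction term of 1.06. GBP4 was called in opposite directions, at 0.46 at 24 h and -0.67 at 8 h, with an interaction term of 1.13. IRF1 was likewise higher at 24 h by 0.19 and lower at 8 h by 0.18 on the log2 scale. Of the 40 interferon-stimulated genes 6 were higher and 13 lower at 8 h, against 13 and 2 at 24 h, and 13 had a difference that was higher at 24 h. Over all 20920 genes tested, 3346 were higher and 3190 lower at 8 h, and 1469 had a difference that was higher at 24 h. SLC7A11 and BPI were called in the other order of signs, at -0.49 and -0.45 at 24 h and 0.37 and 0.34 at 8 h.

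Growth and protein-folding genes that were higher with AML874 at 8 h were for the most part not higher at 24 h. Endoplasmic reticulum chaperones were higher in 14 of 17 at 8 h and in 2 at 24 h, and the difference was lower at 24 h in 13. DNA replication genes were higher in 18 of 35 at 8 h and 2 at 24 h, and 18 had a lower difference at 24 h. For MYC and nucleolar genes the counts were 16 higher of 28 at 8 h, 0 at 24 h and 16 with a lower difference, and for cholesterol synthesis genes 13 of 23, 4 and 8. Heat shock genes were higher in 7 of 19 at 8 h, and 13 had a lower difference at 24 h. Primary granule genes were higher in 7 of 11 at 8 h, and 7 had a lower difference at 24 h. Mitosis genes were lower in 15 of 27 at both times, and 2 had a lower and 4 a higher difference at 24 h. For comparison, of all 20920 genes tested 3346 were higher and 3190 lower at 8 h, and 1674 higher and 2435 lower at 24 h. The difference was lower at 24 h in 2235 of them and higher in 1469.

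**Figure D5:**
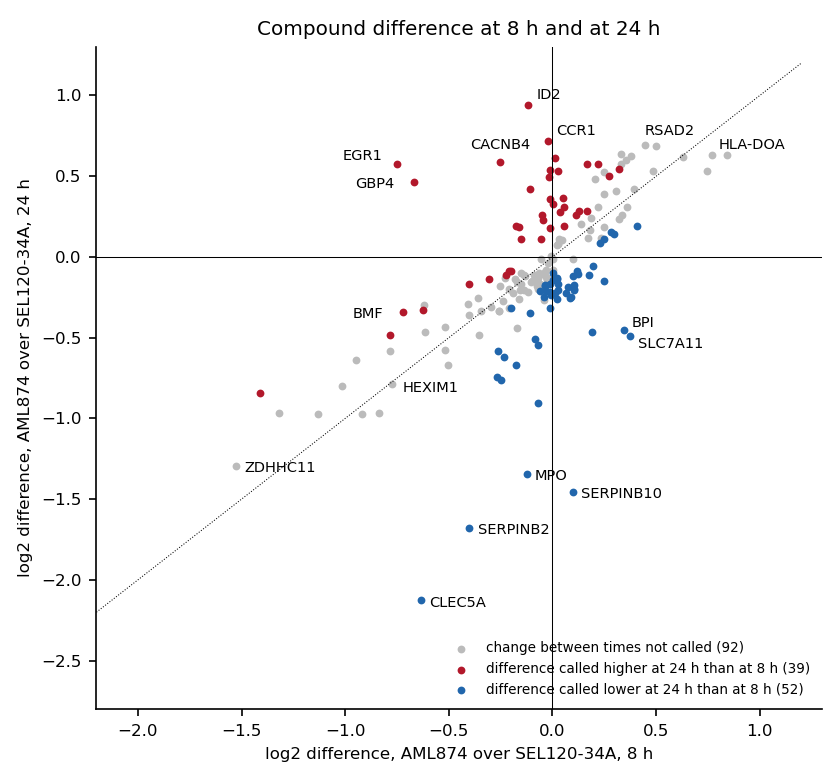
Log2 difference between AML874 and SEL120-34A at 24 h (y axis) against that at 8 h (x axis) for 183 named genes above 1 CPM; red points (39) were called higher and blue points (52) lower at 24 h than at 8 h by the interaction term, grey points (92) were not called, and the dotted line marks equal differences. HEXIM1 and ZDHHC11 lie near the line, and MPO, SERPINB10, SERPINB2, CLEC5A, ID2 and GBP4 lie far from it. Most of the genes were named for their values at 24 h, which favours larger differences at that time.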

How the data were processed

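PolyA-selected RNA of OCI-AML1 cells was sequenced in 18 libraries, 3 for each compound or DMSO at each time. STAR 2.7.1a and RSEM 1.3.2 are named in the submitters' processing notes; how each was run is not given in the sources used here. The authors deposited raw read counts per gene for 3 strand settings, not normalized, and RSEM expected counts. The reverse-strand counts were used, without the summary lines (23.2 to 25.2% of each library), since forward-strand counts were only 6.27 to 6.34% of them. Expected counts were rounded to whole numbers as an alternative.

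Genes that passed filterByExpr were tested with the robust quasi-likelihood test of edgeR 4.0.16 in R 4.3.3, with TMM scaling and 1 model of all 6 groups of the series. P-values were adjusted by the Benjamini-Hochberg method over 20920 genes, and the threshold was 0.05. CPM values are TMM-scaled, SE is the standard error of the log2 difference, and intervals are 95% intervals of it. The interaction term is the compound difference at 24 h minus that at 8 h. The fits were tested on simulated counts with known changes. Of 60609 gene identifiers 60295 had a symbol and 58502 a GENCODE 29 entry (GRCh38), which gave biotypes and positions.

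The groups, gene lists and comparisons were chosen with earlier results of these data known. The genes named were the 15 largest rises and 15 largest falls among called protein coding genes whose higher group averaged 5 CPM or more and whose libraries did not overlap, 5 each way among other genes, up to 4 per list by p, and 15 fixed genes. One gene that this rule names is not reported here. Genes on other grounds are said to be chosen after their values were seen. Alternatives covered scaling, test (DESeq2 1.42.0, limma 3.58.1), filters, counting, covariates and left-out libraries. Libraries of a group differed by more than sampling noise, so none was counted as a duplicate.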

Additional observations from a re-analysis of the deposited data

Results flagged for a closer look

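Among the genes named in the text above, a difference between the compounds was marked where it changed between the times. The test was the interaction term of the edgeR model, with an adjusted p under 0.05 over all genes. Each value in brackets is the log2 difference at 24 h minus that at 8 h. Most of these genes were named for their values at 24 h, and other genes that met the threshold are not listed. Of all genes tested 17.7% met this, so single genes with small values carry little weight. Among myeloid effector genes the value was lower at 24 h for SERPINB10 (-1.55), CLEC5A (-1.49), SERPINB2 (-1.28), MPO (-1.22), MGAM (-0.83), BPI (-0.79), LYZ (-0.34), SRGN (-0.29), MMP25 (-0.39) and TLR4 (-0.17), and higher for CCR1 (0.74), MS4A7 (0.51), CTSS (0.35), CSF1R (0.36) and MPEG1 (0.22). For transcription factors of blood cells and for surface genes it was lower for NFE2 (-0.48), CEBPE (-0.42), CEBPD (-0.24), SPI1 (-0.14) and ZBTB12 (-0.49), and higher for ID2 (1.06), CD38 (0.23), CD96 (0.16) and IKZF1 (0.14). Among interferon and antigen presentation genes it was higher for GBP4 (1.13), IRF1 (0.37), IFIT3 (0.28), CMPK2 (0.25), HLA-DMA (0.37), HLA-DPA1 (0.12), HLA-DPB1 (0.16), ERAP2 (0.33), PSMB9 (0.27) and TAP1 (0.19). In the whole lists it was called higher in 13 of 40 interferon-stimulated genes and lower in 1. For MHC class I presentation it was higher in 6 of 18 and for class II in 3 of 13, with 0 lower in both.

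Among stress and folding genes the value was lower for SLC7A11 (-0.86), SLC1A5 (-0.31), PSAT1 (-0.29), DNAJB9 (-0.34), DNAJC3 (-0.22), CRELD2 (-0.21), CANX (-0.14), HSP90AA1 (-0.23), HSPH1 (-0.19), CHORDC1 (-0.20) and TKT (-0.15). Among growth genes it was lower for E2F2 (-0.30), MCM7 (-0.23), MCM2 (-0.15), DKC1 (-0.16) and MKI67 (-0.12). Genes of transcription, chromatin and splicing were lower in CLK1 (-0.32), TET2 (-0.28), EP300 (-0.23), MED13 (-0.25) and HNRNPDL (-0.21), and higher in SAFB (0.24). Mitochondrial genes were higher in MT-ND1 (0.32), MT-ND3 (0.26) and MT-CO1 (0.15), and lower in the nuclear-encoded UQCRC2 (-0.15) and NDUFA10 (-0.13). Signalling genes were higher in EGR1 (1.33), CXCL2 (0.53) and IL1RN (0.30), and lower in JUNB (-0.28), SPRED1 (-0.30), SPRED2 (-0.15) and SKI (-0.15). Survival, transport and autophagy genes were higher in BMF (0.38), ULK1 (0.17) and MAP1LC3B (0.11), and lower in BCL2L11 (-0.26), BAX (-0.10), ABCA1 (-0.48), ABCC4 (-0.40) and NT5C2 (-0.14). Other values were lower for ENSG00000254006 (-0.66) and C12orf57 (-0.51), and higher for RPL22 (0.11), ENSG00000260997 (0.30), FLOT1 (0.36), NAPSB (0.41), GTF2IP20 (0.50), LIMA1 (0.55), SWINGN (0.57) and CACNB4 (0.84). EGR1 was not called at either time alone (adjusted p = 0.115 at 24 h and 0.0611 at 8 h). The 3 libraries of a group are too few for a test of single libraries that stand apart.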

How the results depend on the processing

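The counts at 24 h (1674 higher and 2435 lower) kept within 1.5 times under each alternative run: 1703 and 2635 with DESeq2, 1725 and 2427 with limma-voom, 2025 and 2094 with a filter of 1 CPM in 3 libraries, and 1711 and 1912 with the 2 groups alone. The counts past 2-fold depended on weakly expressed genes: 66 higher genes became 43 with DESeq2, 109 with a filter of 1 count and 3 with the 1 CPM filter, and 66 lower ones became 13 with the 1 CPM filter. Leaving out 1 library gave 1183 to 1544 higher and 1810 to 2441 lower genes, 50 to 74 and 60 to 79 past 2-fold, and 1101 to 1578 higher and 1807 to 2475 lower for the change between the times. Same-numbered libraries of the 2 compounds at 24 h did not deviate together (correlations of -0.386, -0.181 and 0.169). With 3 libraries per group this cannot settle whether the numbers mark shared cultures or days. A replicate block gave 1615 higher and 2326 lower genes, and 1395 and 2141 for the change between the times. Replicate 1 of AML874 and replicate 2 of SEL120-34A deviated most alike (0.485), and leaving out both, an alternative chosen after seeing the data, gave 1233 and 1945 genes; BMF, MDM2 and DNAJC3 then did not pass (adjusted p = 0.0603, 0.0569 and 0.0573). With the mean of the glycolysis and HIF genes as a covariate 2122 and 3016 genes passed. The counts of the gene lists were less stable. With this covariate 23 of them moved by more than 1.5 times, or between none and some, and 53 did not. Such moves numbered 19 without the 2 libraries named above, 15 with the 1 CPM filter and 2 with a replicate block. Of 184 named genes 29 lost their call, and 2 gained one, under at least 1 alternative. RPL22 turned to 0.01 with RSEM counts, against -0.09; the cause was not tested. Genes under 1 CPM had a median SE of 0.359 and those over 50 CPM one of 0.029, so small differences could not be seen in weakly expressed genes.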
